A study of Sus scrofa with 10 samples.

Results

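The nuclear genes of the respiratory chain were taken as the rows of a liver expression table whose symbol starts with NDUF, SDHA to SDHD, UQCR, COX4 to COX8 or ATP5 and whose mean over 10 libraries is at least 1 RPKM (a read count scaled to gene length and to the reads of the library). Of 25009 gene identifiers 51 had such a symbol, and 50 of these passed the level. They were 20 subunits of complex I, 4 of complex II, 6 of complex III, 6 of complex IV, 6 genes of complex V and 8 assembly factors. NDUFA4L2, a paralog of NDUFA4, was left out with a mean of 0.162 RPKM, and the lowest member inside the limit was NDUFA6 with 1.94 RPKM. Subunits without a matched symbol, among them those of the COX6 family, and CYC1 are not analysed here.

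Mitochondria carry out oxidative phosphorylation with complexes of the inner membrane. Complex I (NADH dehydrogenase) and complex II (succinate dehydrogenase) pass electrons to ubiquinone, complex III hands them to cytochrome c, complex IV (cytochrome c oxidase) passes them to oxygen, and complex V (ATP synthase) uses the proton gradient that complexes I, III and IV build. A few core subunits of complexes I, III, IV and V are encoded by the mitochondrial genome, and all other subunits, complex II included, are encoded in the nucleus and imported. In the liver this chain serves the oxidation of fatty acids and amino acids and supplies ATP for gluconeogenesis and urea synthesis.

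The libraries were made from liver of male pigs (Sus scrofa) frozen at slaughter, all with the age value 175 and no unit beside it. Of these, 5 carried the label of high growth and fatness and 5 that of low growth and fatness, here called high and low. The labels name no breed and do not say that the 10 livers were of 10 animals. The p-values below therefore reflect the variation among these libraries, which may be technical. Strand was not kept by the library kit, and an antisense transcript would be counted with the gene it overlaps.

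RPKM summed to 539327 to 567220.0 per library. The absolute depth is unknown, and the estimated depth of the libraries relative to each other spanned 1.41-fold. The lowest estimates rested on few genes, 7 in low replicate 2, 5 in high replicate 2 and 4 in low replicate 1. Hepatocyte markers were high throughout, with albumin (ALB) between 22922 and 52025 RPKM. The 4 matched markers of skeletal and heart muscle together reached at most 0.34 RPKM. A few libraries stood apart. The 13 messages of the mitochondrial genome held 20.2% of the summed RPKM in low replicate 4 and 10.1% in low replicate 2, the lowest. High replicates 1 and 5 held nervous system transcripts, with 7.74 and 9.24 RPKM summed over 5 markers, where the other 8 libraries had at most 0.97 RPKM. Markers of pericytes, stellate cells and smooth muscle summed to 117 and 123 RPKM in low replicates 1 and 3. In low replicates 4 and 5 they summed to 32.95 and 33.05 RPKM. T and NK cell markers ran from 9.02 RPKM in high replicate 1 to 32.0 RPKM in low replicate 4. Macrophage markers ran from 194 RPKM in high replicate 2 to 357 RPKM in low replicate 2. The part of these cells in the levels of the members was not tested.

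Most members were strongly expressed. Their median level was 44.8 RPKM, where the median of all 10931 genes at or above the same limit was 6.10 RPKM. The levels below are means over all 10 libraries and are scaled to gene length. How well that scaling holds for short messages was not checked, so the order of genes is approximate.

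**Figure D1:**
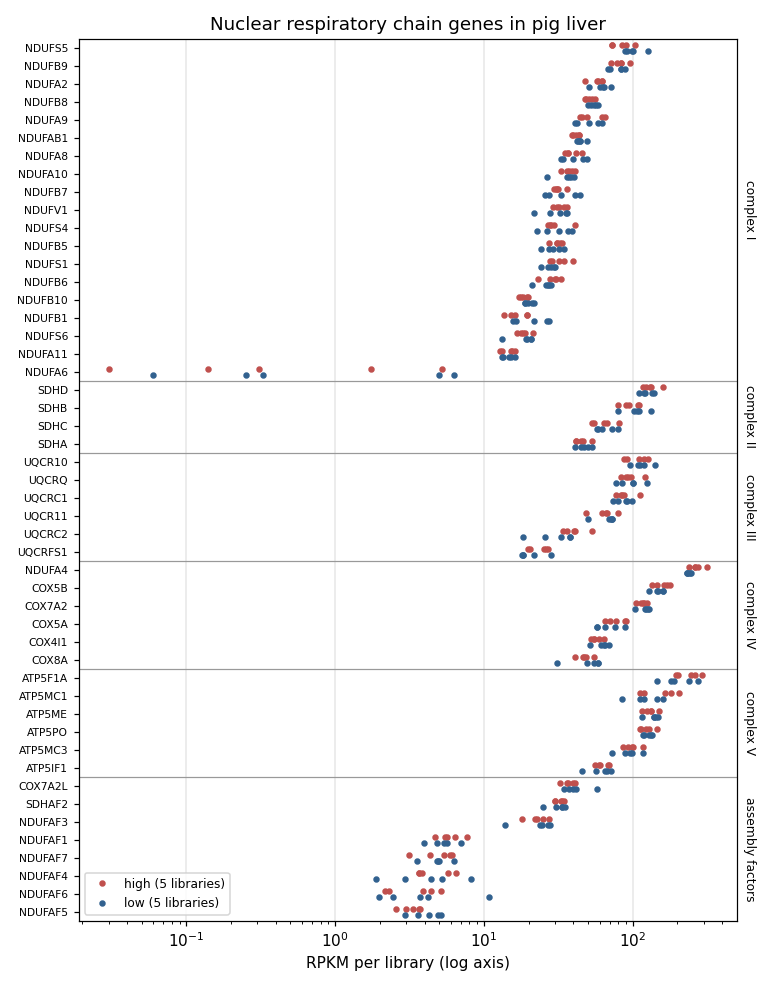
RPKM of 49 of the 50 members in each library on a log axis, grouped by complex and ordered by mean level, with red points for the 5 high and blue points for the 5 low libraries. Most subunits lie between 10 and 300 RPKM, most assembly factors lie lower, the colours overlap in each row, and NDUFA6 spreads from 0.03 to 6.34 RPKM.

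The most abundant member was NDUFA4 (ENSSSCG00000024313), once assigned to complex I and now counted with complex IV, at 254 RPKM. Next came ATP5F1A (ENSSSCG00000004499), the alpha subunit of the catalytic head of ATP synthase, at 223 RPKM. In complex V, ATP5MC1 and ATP5MC3, which in mammals encode the same mature subunit c of the membrane rotor behind different import sequences, had 140.2 and 97.1 RPKM. ATP5ME, a small subunit of the membrane part, had 134 RPKM and ATP5PO, part of the stalk that holds the head, had 126 RPKM. ATP5IF1, which inhibits the reverse reaction of the enzyme, was the lowest gene of complex V at 62.0 RPKM.

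In complex IV the nuclear subunits that surround the catalytic core followed NDUFA4. COX5B had 153 RPKM, COX7A2 118, COX5A 73.9, COX4I1 59.8 and COX8A 49.1 RPKM. In complex III the small subunits UQCR10 and UQCRQ had 112 and 97.2 RPKM and UQCR11 had 66.02 RPKM. The large core protein gene UQCRC1 had 88.1 RPKM, while its partner UQCRC2 had 35.9 RPKM. The iron-sulfur protein gene UQCRFS1, which carries electrons to cytochrome c1, was lowest at 22.4 RPKM.

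All 4 subunits of complex II were measured, which also form part of the citric acid cycle. The membrane anchors SDHD and SDHC had 129 and 65.2 RPKM, the iron-sulfur subunit SDHB had 101 RPKM and the flavoprotein SDHA, which binds succinate, had 46.5 RPKM. Through NDUFA6 at 1.94 RPKM, complex I had the widest range as a ratio of its highest to its lowest member. Its membrane arm, which pumps protons, held the highest member NDUFS5 at 93.03 RPKM, with NDUFB9 at 80.6 and NDUFB8 at 52.9 RPKM, down to NDUFA11 at 14.6 RPKM. The matrix arm, where NADH is oxidised, held NDUFA2 at 59.8 RPKM, and its core subunits NDUFV1 and NDUFS1 had 31.7 and 30.1 RPKM.

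The 8 assembly factors had a median level of 5.32 RPKM, below the median of each complex, the lowest of which was 31.4 RPKM in complex I. COX7A2L, which links complexes III and IV in supercomplexes, had 39.7 RPKM, SDHAF2, which helps SDHA take up its flavin, had 31.9 RPKM, and NDUFAF3 had 23.2 RPKM. NDUFAF1, NDUFAF7, NDUFAF4, NDUFAF6 and NDUFAF5, which act on complex I intermediates, had 5.69, 4.96, 4.60, 4.12 and 3.72 RPKM.

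NDUFA6 (ENSSSCG00000000045), a subunit of the matrix arm, had the largest spread between libraries. It had 0.14, 5.21, 0.31, 1.74 and 0.03 RPKM in high replicates 1 to 5 and 0.33, 6.34, 5.0, 0.25 and 0.06 RPKM in low replicates 1 to 5. Values of 5.0 RPKM or more stood in high replicate 2 and low replicates 2 and 3, high replicate 4 lay between at 1.74 RPKM, and the other 6 libraries had at most 0.33 RPKM. Both groups held high and low values, and its SD of log2(RPKM + 1) over the 10 libraries was 1.17, the largest of the members. The other 49 members had SDs between 0.09 and 0.60, and the median over all 50 was 0.21, below the 0.26 of all genes tested.

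The comparison of high with low asked whether the respiratory chain differs between livers of the 2 phenotypes. No member passed the test, and the spread within the groups was wide beside the differences. By the mean of log2(RPKM + 1), on which the direction of each gene is counted here, 27 of the 50 members were higher in high and 23 in low, and their median difference was 0.0045 on the log2(RPKM + 1) scale, against -0.0049 over all genes. In limma 0 members had an adjusted p under 0.05 and 0 had an unadjusted p under 0.05, where 0% and 4.55% of all 10931 genes did. The values of the groups overlapped in all 50 members, while 0.805% of all genes did not overlap.

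**Figure D2:**
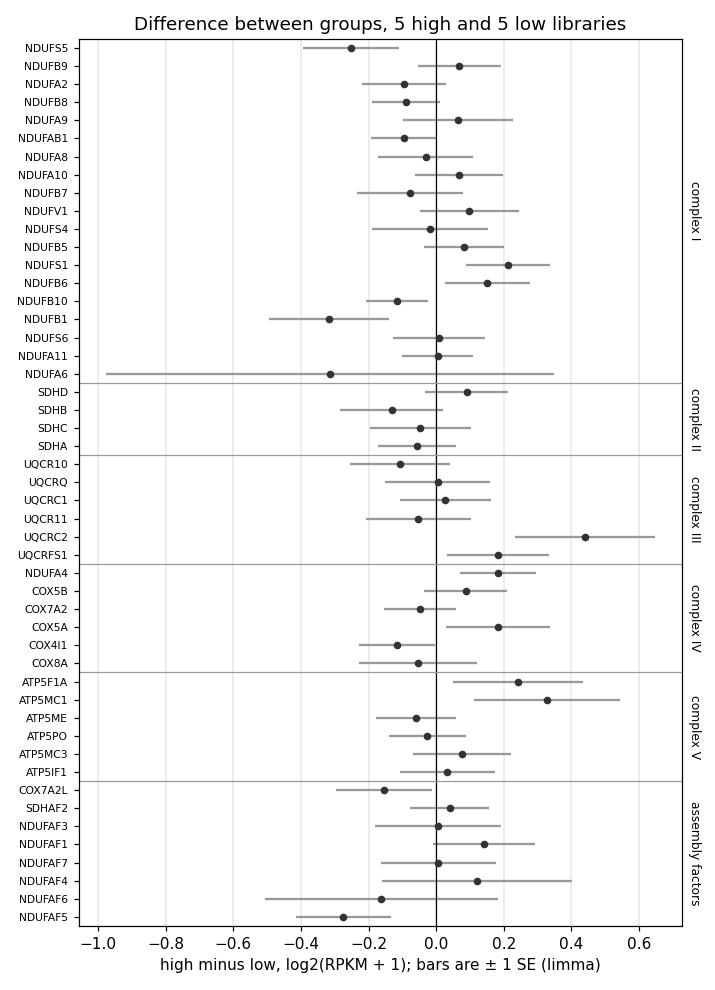
Difference of high minus low on the log2(RPKM + 1) scale for 49 of the 50 members, with bars of 1 SE from limma (5 libraries in each group), grouped by complex. The points lie between -0.32 and 0.44, and none passed the test.

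Among members with the higher mean in high, the smallest p belonged to UQCRC2 (ENSSSCG00000007845), a core protein of complex III. It had 40.1, 41.1, 34.3, 36.0 and 53.7 RPKM in high replicates 1 to 5 and 25.9, 33.2, 38.1, 18.2 and 38.1 RPKM in low replicates 1 to 5. High replicate 5 was highest and low replicate 4 lowest, and low replicates 3 and 5 lay above high replicates 3 and 4. The means were 41.03 ± 7.60 RPKM in high and 30.7 ± 8.57 RPKM in low (SD, n = 5 each) and the log2 difference was 0.44 (SE 0.21), with an adjusted p of 0.961 in limma.

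NDUFS1 (ENSSSCG00000016127), the largest iron-sulfur subunit of complex I, had 34.6, 28.5, 31.8, 27.9 and 39.8 RPKM in high replicates 1 to 5 and 29.5, 30.02, 28.3, 24.2 and 26.9 RPKM in low replicates 1 to 5. High replicates 1, 3 and 5 exceeded all low libraries, while high replicates 2 and 4 lay within their range. Its log2 difference was 0.21 (SE 0.12). NDUFA4 had 273, 263, 263, 241 and 314 RPKM in high replicates 1 to 5 and 231, 243, 247, 232 and 234 RPKM in low replicates 1 to 5. The low libraries lay close together and only high replicate 4 lay among them, and the means were 271 ± 27.1 RPKM in high and 238 ± 6.96 RPKM in low (SD, n = 5 each) and the log2 difference was 0.18 (SE 0.11). The authors' deposited table gave a p of 0.02 for NDUFA4 and 0.04 for NDUFS1, the 2 members with a p under 0.05 there, before any adjustment. The share of all genes with such a p there was not computed, so this count has no background beside it.

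Among members with the higher mean in low, NDUFAF5 (ENSSSCG00000007076), which modifies the complex I subunit NDUFS7, had 3.74, 3.33, 2.55, 3.02 and 3.65 RPKM in high replicates 1 to 5 and 2.96, 5.13, 4.30, 4.93 and 3.62 RPKM in low replicates 1 to 5. Low replicates 2, 3 and 4 exceeded all high libraries and the other 2 lay among them, with a log2 difference of -0.27 (SE 0.14). NDUFB1 (ENSSSCG00000002449), a small subunit of the membrane arm, had 13.7, 19.4, 15.2, 16.3 and 19.5 RPKM in high replicates 1 to 5 and 16.4, 21.7, 15.7, 27.6 and 26.7 RPKM in low replicates 1 to 5. Low replicates 2, 4 and 5 were above all high libraries, and the log2 difference was -0.32 (SE 0.18). NDUFS5 (ENSSSCG00000003653) had 72.8, 90.3, 72.9, 84.3 and 104 RPKM in high replicates 1 to 5 and 90.98, 89.3, 99.04, 126 and 100.2 RPKM in low replicates 1 to 5, with its highest value in low replicate 4 and a log2 difference of -0.25 (SE 0.14). With 1 library left out, the unadjusted p came below 0.05 for NDUFS5 (without high replicate 5). UQCRC2 reached such a p without high replicate 3 or low replicates 3 or 5. NDUFB1 did so without low replicates 1 or 3, NDUFAF5 without low replicate 1 and UQCRFS1 without low replicate 2. No adjusted p passed in any of these fits. Without low replicates 1 and 3 there were 2 such members each, where 5.92% and 3.86% of all genes had an unadjusted p under 0.05. The other fits named here had 1 each, where 3.57% to 7.49% of all genes did.

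By complex, the median log2 difference was -0.0069 for complex I (10 of 20 members with a positive difference), -0.052 for complex II (1 of 4), 0.015 for complex III (4 of 6), 0.020 for complex IV (3 of 6), 0.054 for complex V (4 of 6) and 0.0051 for the assembly factors (5 of 8). ATP5MC1 and ATP5F1A had the largest differences in complex V, 0.33 (SE 0.22) and 0.24 (SE 0.19). In complex II, SDHB had 96.3 ± 12.9 RPKM in high and 106 ± 18.99 RPKM in low (SD, n = 5 each). COX4I1, the subunit through which complex IV responds to ATP, had 57.3 ± 4.26 RPKM in high and 62.3 ± 6.56 RPKM in low. The flavin-binding NDUFV1, where NADH enters complex I, had 32.6 ± 2.88 RPKM in high and 30.8 ± 6.01 RPKM in low.

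The libraries differed from one another in ways that crossed the groups. The summed RPKM of the members was 3046, 3087, 3231, 2843 and 3583 in high replicates 1 to 5 and 2975, 3260.5, 3292, 3144 and 2715 in low replicates 1 to 5. High replicate 5 was highest and low replicate 5 lowest, so each group held an extreme. High replicate 5 had the highest value of 15 of the 50 members and low replicate 5 the lowest value of 17. The share of all genes at an extreme in each library was not computed. In bulk tissue, fewer cells of a type and less RNA per cell cannot be told apart. High replicate 5 is a library with nervous system transcripts, as is high replicate 1, which had the highest value of 0 members and the lowest of 9, and their part in these levels was not tested.

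**Figure D3:**
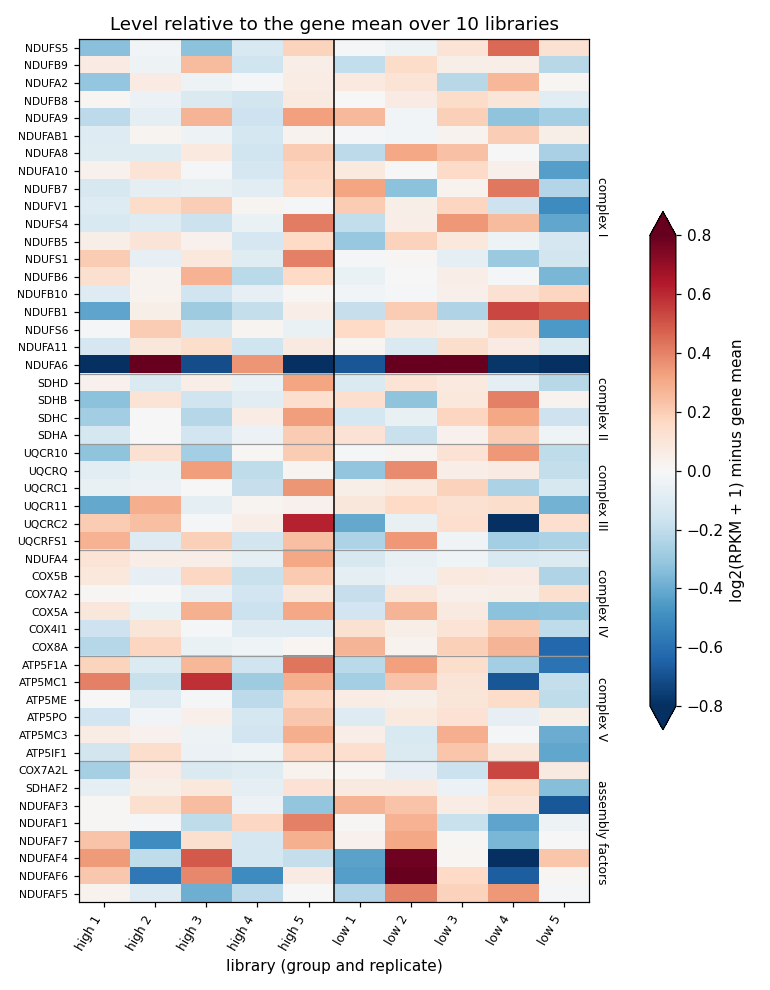
Level of 49 of the 50 members in each library as log2(RPKM + 1) minus the mean of the same gene over 10 libraries, from blue (lower) to red (higher), with the scale ending at 0.8 on either side, which NDUFA6 and single values of other genes exceed. High replicate 5 is mostly red and low replicate 5 mostly blue, while low replicate 4 holds both strong red and strong blue cells.

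Complexes did not keep the same order from library to library. In high replicate 5 the median member of complexes II, III, IV and V stood at 1.19, 1.16, 1.11 and 1.17 times its own mean over the libraries, and the assembly factors at 0.994. In low replicate 4 complex II stood at 1.19, complex III at 0.934 and complex V at 0.969 times. In low replicate 2 the assembly factors reached 1.25 times their mean while complex II stood at 0.914. In low replicate 5 all 5 complexes lay between 0.798 (complex V) and 0.927 (complex II).

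**Figure D4:**
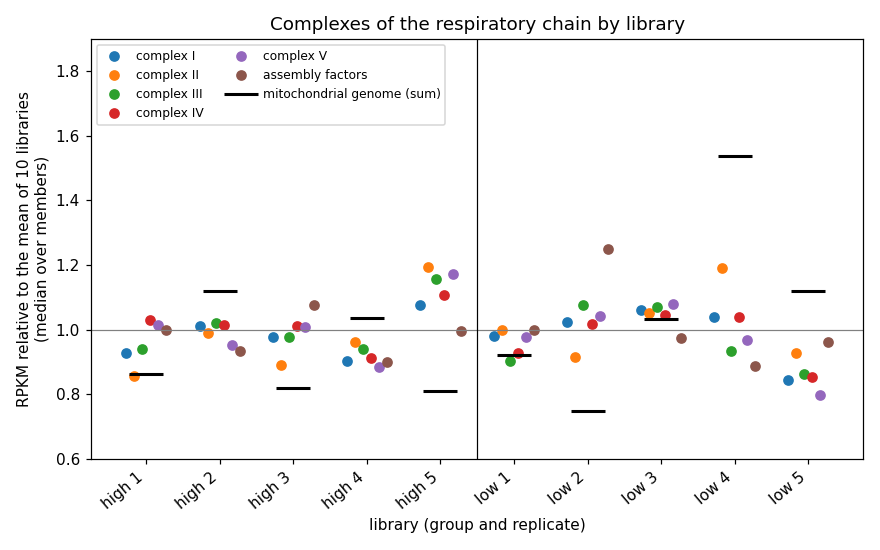
RPKM relative to the mean of the 10 libraries, as the median over the members of each complex (coloured points) and as the sum over the 13 genes of the mitochondrial genome (black bars), by library. The complexes stay between 0.80 and 1.25, and the mitochondrial genome is furthest from 1 in low replicate 4, where complex II is above 1 and complexes III and V are below it.

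Low replicate 4 held members at both ends of their range. Over all tested genes it was also in the least correlated pair of libraries, with high replicate 3 (r = 0.906). The share of all genes at their highest or lowest value in low replicate 4 was not computed. Low replicate 4 had the highest value of 11 members, among them SDHA, SDHB, COX4I1, COX7A2L, UQCR10, NDUFS5, NDUFA2 and NDUFB7. It had the lowest value of 10, among them UQCRC1, UQCRC2, UQCRFS1, COX5A, ATP5MC1, NDUFS1 and NDUFAF4. Subunits of the same complex were therefore at both ends: in complex III UQCR10 had 141 RPKM, where the other libraries had 88.1 to 127, and UQCRC2 had 18.2 RPKM, where the others had 25.9 to 53.7.

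The messages of the 2 genomes were compared across libraries, since both supply subunits of the same complexes. The 13 mitochondrial genes summed to 64249, 83256, 60884, 77048 and 60196 RPKM in high replicates 1 to 5 and 68518, 55589.7, 76837, 114419 and 83278 RPKM in low replicates 1 to 5. Low replicate 4 was highest and low replicate 2 lowest. The ratio of this sum to that of the members ran from 16.8 in high replicate 5 to 36.4 in low replicate 4, since the mitochondrial sum differed more between libraries than that of the members. In RPKM a larger mitochondrial share leaves less for the other genes.

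Each gene was then fitted on the log2 of the mitochondrial sum, the slope being its change in log2(RPKM + 1) per doubling of that sum. In limma 6 of 50 members had an adjusted p under 0.05 and a negative slope and 0 had one with a positive slope, where 11.5% and 3.21% of all 10918 genes tested did. The share of members was near that background. At an unadjusted p under 0.05 there were 13 members, against 32.8% of all genes, and the median slope was -0.12 over the members and -0.16 over all genes. With 1 library left out in turn, the members' median ran from -0.27 (without low replicate 4) to -0.019 (without low replicate 5).

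ATP5MC1 (ENSSSCG00000017544) had 180.0, 120.1, 204, 111 and 166 RPKM in high replicates 1 to 5 and 112, 159, 146, 84.2 and 119 RPKM in low replicates 1 to 5. High replicates 1, 3 and 5 and low replicate 2, the 4 libraries with the smallest mitochondrial sums, had its 4 highest values, and low replicate 4 had its lowest. It fell as the mitochondrial sum rose, with a slope of -1.06 (SE 0.24, adjusted p = 0.0200 in limma). ATP5MC3, which encodes the same mature protein, had 100.2, 98.8, 93.5, 86.4 and 118 RPKM in high replicates 1 to 5 and 99.8, 88.4, 118, 95.7 and 72.7 RPKM in low replicates 1 to 5. The ratio of ATP5MC1 to ATP5MC3, which does not depend on library scaling, was 1.80, 1.22, 2.19, 1.29 and 1.41 in high replicates 1 to 5 and 1.124, 1.80, 1.24, 0.881 and 1.64 in low replicates 1 to 5. ATP5MC3 exceeded ATP5MC1 in low replicate 4 alone. The sources used here do not say how reads were shared between related genes, so the split between this pair is uncertain, as is the level of NDUFA4, whose symbol a pseudogene also carries in the RefSeq name table.

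COX5A (ENSSSCG00000024316), a subunit on the matrix side of complex IV, had 77.9, 70.1, 88.9, 64.7 and 90.6 RPKM in high replicates 1 to 5 and 65.6, 88.3, 76.6, 57.96 and 58.05 RPKM in low replicates 1 to 5. Low replicate 2 and high replicates 3 and 5 had its highest values, 88.3 to 90.6 RPKM, and the slope was -0.66 (SE 0.18, adjusted p = 0.0362 in limma). UQCRFS1 (ENSSSCG00000027085) had 26.98, 20.4, 25.3, 19.8 and 26.3 RPKM in high replicates 1 to 5 and 18.4, 28.3, 21.6, 18.1 and 18.3 RPKM in low replicates 1 to 5. The same 4 libraries that led for ATP5MC1 had 25.3 RPKM or more and the other 6 had at most 21.7, with a slope of -0.64 (SE 0.18, adjusted p = 0.0414 in limma).

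The other 3 members that fell were assembly factors of complex I. NDUFAF7 (ENSSSCG00000008494), a mitochondrial methyltransferase, had 5.88, 3.16, 5.42, 4.35 and 6.14 RPKM in high replicates 1 to 5 and 5.02, 6.26, 4.90, 3.55 and 4.87 RPKM in low replicates 1 to 5, and its slope was -0.73 (SE 0.18, adjusted p = 0.0254 in limma). NDUFAF4 (ENSSSCG00000004342) had 5.75, 3.64, 6.51, 3.83 and 3.68 RPKM in high replicates 1 to 5 and 2.97, 8.15, 4.40, 1.88 and 5.22 RPKM in low replicates 1 to 5, with a slope of -1.17 (SE 0.33, adjusted p = 0.0389 in limma). NDUFAF6 (ENSSSCG00000006093) had 4.44, 2.16, 5.13, 2.31 and 3.92 RPKM in high replicates 1 to 5 and 2.46, 10.9, 4.23, 1.97 and 3.72 RPKM in low replicates 1 to 5, with a slope of -1.43 (SE 0.41, adjusted p = 0.0416 in limma). NDUFAF4 and NDUFAF6 were both highest in low replicate 2 and lowest in low replicate 4, which are the libraries with the smallest and the largest mitochondrial sum. The 2 remaining NDUFAF genes of low level differed in direction, with slopes of -0.54 for NDUFAF1 and 0.20 for NDUFAF5, neither past the threshold.

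Positive slopes did not pass as measured. COX7A2L (ENSSSCG00000008466) had 32.4, 41.1, 36.1, 36.6 and 39.99 RPKM in high replicates 1 to 5 and 39.7, 37.5, 34.8, 57.2 and 41.3 RPKM in low replicates 1 to 5. Its value in low replicate 4 stood above all others, and the slope was 0.53 (SE 0.19, adjusted p = 0.0796 in limma). SDHB (ENSSSCG00000020926) had 79.4, 108, 89.6, 94.6 and 110.1 RPKM in high replicates 1 to 5 and 110.3, 79.8, 106, 133 and 102 RPKM in low replicates 1 to 5, and the slope was 0.55 (SE 0.20, adjusted p = 0.0842 in limma). High replicate 1 and low replicate 2 were lowest and low replicate 4 highest. With RPKM scaled by median-of-ratios size factors, COX7A2L and SDHB passed with slopes of 0.58 and 0.61 (adjusted p = 0.0436 and 0.0476 in limma). The 6 members above did not pass there, where 6.47% of all genes did. The median slope of all genes moved from -0.16 to -0.0037. The median slope of the members was then 0.053, with 30 of 50 positive instead of 21. With the same sum in each library all 6 passed, and ATP5F1A with them (17.4% of all genes). With the same sum without the 13 mitochondrial genes, ATP5MC1, NDUFAF4 and NDUFAF6 passed, and COX7A2L with a positive slope (12.1% of all genes). Quantile normalization called the 6 other than NDUFAF7, and ATP5F1A, with COX7A2L and SDHB positive (24.9% of all genes).

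**Figure D5:**
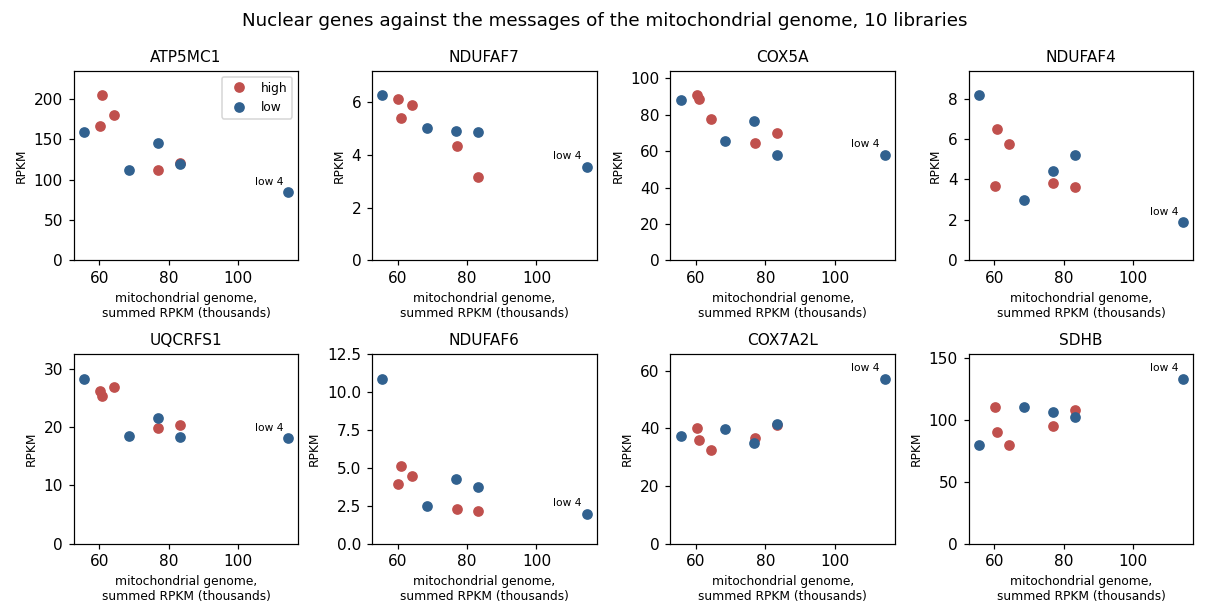
RPKM of 8 members against the summed RPKM of the 13 mitochondrial genes (linear axis, in units of 1000 RPKM), with red points for high and blue points for low libraries, low replicate 4 marked. The 6 members from ATP5MC1 to NDUFAF6 fall from left to right, COX7A2L and SDHB are highest in low replicate 4, and no other library lies near low replicate 4 on the horizontal axis.

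These slopes rest on low replicate 4 for their calls. Without it 0 members had an adjusted p under 0.05 in limma, where 0.943% of all genes did, and 7 members had an unadjusted p under 0.05, where 26.0% of all genes did. The slopes of the 6 members were then -1.08 for ATP5MC1, -0.87 for COX5A, -0.92 for UQCRFS1, -0.95 for NDUFAF7, -0.92 for NDUFAF4 and -1.94 for NDUFAF6 (adjusted p = 0.0797 to 0.281), all still negative. The slope of COX7A2L was then 0.17 and that of SDHB 0.46. Without low replicate 2 the 1 of 50 members called was ATP5MC1, where 7.78% of all genes were called. Without high replicates 1, 2, 3 or 4 in turn the 2 of 50 called were ATP5MC1 and NDUFAF7. The share of all genes called in these 4 fits was 10.21%, 8.79%, 7.90% and 9.83%. Without high replicate 5 the 7 called were the members above other than UQCRFS1, and SDHB and NDUFS5 with positive slopes. In that fit 20.9% of all genes were called. With the phenotype group as a further term, ATP5MC1, NDUFAF6 and NDUFAF7 passed, where 9.85% of all genes did.

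The acute phase level, the mean log2(RPKM + 1) of 9 plasma protein genes that the liver raises in inflammation, ran opposite to the mitochondrial sum at its ends. It was 11.02, 10.3, 11.1, 10.8 and 10.9 in high replicates 1 to 5 and 10.8, 11.1, 10.95, 9.69 and 10.7 in low replicates 1 to 5, highest in low replicate 2 and lowest in low replicate 4. In a fit on this level 0 members passed in limma, where 2.21% of all genes did, and 11 had an unadjusted p under 0.05, where 27.1% of all genes did. NDUFAF4 came nearest with a slope of 0.90 (adjusted p = 0.0505), and COX7A2L had -0.46 (adjusted p = 0.0582). Leaving out low replicate 4 gave 0 members and 0% of all genes passing in limma. In that fit 4 members had an unadjusted p under 0.05, where 18.9% of all genes did. The median slope of the members moved from 0.011 to 0.091, and that of all genes from 0.066 to 0.15. Leaving out the 2 libraries farthest from the median of this level, chosen after seeing the data, gave medians of 0.46 and 0.36. The part of either level in the values of the members was not tested.

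A fit on the level of 26 cytosolic ribosomal protein genes, which are also short and abundant nuclear messages, called 0 members in limma, where 0% of all genes were called. Of the members 2 had an unadjusted p under 0.05, against 5.52% of all genes. NDUFAF3 had a slope of 1.71 and UQCRC2 one of -2.09. The median slope was 0.25 over the members and 0.25 over all genes, but 0.53 and 0.39 without high replicate 5, 0.047 and 0.11 without low replicate 2, 0.23 and 0.42 without low replicate 4, 0.040 and 0.098 without low replicate 5, and 0.15 and 0.24 without high replicate 4.

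Other genes of the pathway were taken from lists. Of 25 tested assembly factors without an NDUF or SDH symbol, 10 had the higher mean of log2(RPKM + 1) in high and 15 in low, and 0 had an unadjusted p under 0.05 in limma. OXA1L, which inserts proteins into the inner membrane, had 32.6 ± 3.39 RPKM in high and 27.8 ± 3.12 RPKM in low (SD, n = 5 each). On the mitochondrial sum 2 of them fell and 1 rose, against 14.7% of all genes called in either direction. LRPPRC, which stabilises mitochondrial messages, had a slope of -1.01 and COX10, which makes the heme O precursor of heme A, had -1.08, and CHCHD10 had 0.85 (adjusted p = 0.00840, 0.0464 and 0.0261 in limma).

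Of 18 tested regulators of mitochondrial biogenesis 12 had the higher mean of log2(RPKM + 1) in high and 6 in low. In limma 0 passed and 3 had an unadjusted p under 0.05, where 4.55% of all genes did. PPARA, a nuclear receptor for fatty acids, had 31.4 ± 5.52 RPKM in high and 21.8 ± 6.92 RPKM in low. NRF1, a transcription factor of many respiratory chain genes, had 2.43 ± 0.301 RPKM in high and 3.12 ± 0.531 RPKM in low, and MTERF1, which binds mitochondrial DNA, had 4.90 ± 0.518 RPKM in high and 5.90 ± 0.314 RPKM in low (SD, n = 5 each). SSBP1 and TEFM, which serve replication and transcription of mitochondrial DNA, were the 2 of these 18 genes called on the mitochondrial sum, where 14.7% of all genes were, and both fell as it rose (slopes of -0.94 and -0.83, adjusted p = 0.0343 and 0.0151 in limma).

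Of 31 tested genes of the citric acid cycle, electron carriers and inner membrane transport, 19 had the higher mean of log2(RPKM + 1) in high and 12 in low, and 0 had an unadjusted p under 0.05 in limma. On the mitochondrial sum 3 fell and 2 rose, a share near the 14.7% of all genes called. The ATP carrier gene SLC25A5 had a slope of -1.02, the succinate-CoA ligase gene SUCLA2 -1.68 and COQ2 -0.57, while COQ8A and COQ3, which like COQ2 serve ubiquinone synthesis, had 1.93 and 0.75 (adjusted p between 0.0176 and 0.0435 in limma). Cytochrome c (CYCS) had 161, 73.5, 150.5, 66.8 and 80.7 RPKM in high replicates 1 to 5 and 62.3, 160.2, 88.8, 57.7 and 121 RPKM in low replicates 1 to 5, with a slope of -1.18 that did not pass. The 10 list genes called on the mitochondrial sum with all libraries were followed in 2 other fits. They were chosen by their result in the same data, so a call that stays is not independent support. Without low replicate 4, LRPPRC was the 1 of these 10 still called (slope -1.29, adjusted p = 0.0479 in limma), where 0.943% of all genes were. With median-of-ratios scaling LRPPRC, COX10, CHCHD10, COQ8A and COQ3 were called, where 6.47% of all genes were.

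The members with the smallest SD between libraries were NDUFAB1, NDUFB8 and NDUFB10. NDUFAB1, the acyl carrier that also sits in complex I, varied from 39.03 to 49.6 RPKM, NDUFB10 from 17.2 to 21.8 and NDUFB8 from 47.5 to 58.6 RPKM. NDUFB8 had a highest value 1.23 times its lowest, the narrowest range of the 50, and the median member spanned 1.59-fold. Besides NDUFA6, the widest were NDUFAF6 at 5.52-fold and NDUFAF4 at 4.34-fold.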

How the data were processed

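The deposited table holds 1 RPKM value per gene and library, made by the authors from reads on build Sscrofa10.2, per the submitters' processing notes. No aligner, counter or annotation release is given in the sources used. It also holds the authors' p-value and a signed fold change per gene, taken as a score whose negative sign goes with higher means in high. A dot marks groups of digits in 624 values of 1000 or more, which were read as whole values. Symbols from the name tables matched 11779 of 25009 identifiers and 7224 of the 10931 genes tested. Promoter and protein sequences and the planned motif search were not used here.

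Relative depth was estimated from values under 0.01 RPKM, taken to stand for the same number of reads in each library, which was not checked. Counts could not be had, so the planned count tests were not run. Genes averaging 1 RPKM or more were tested on log2(RPKM + 1), which understates the change of low genes, by two-sided moderated tests of limma 3.58.1 (R 4.3.3; eBayes with a mean-variance trend), and a call is a Benjamini-Hochberg adjusted p under 0.05 over all genes. The same fit took as slope the log2 summed RPKM of the 13 mitochondrial genes, or the mean level of acute phase or ribosomal protein genes, each without the genes of that level. The fits were also run on simulated data in which genes varied independently. Such data cannot show how the fits behave where many genes move together. Tables were made with Python 3.11.15 and pandas 2.3.3.

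Alternatives were pseudocounts of 0.1 and 0.5, no filter or a mean of at least 5 RPKM, 4 scalings, eBayes without trend or robust, a covariate, and each library left out. Of the members 1 is not reported here by name. Members and lists were chosen with earlier results of these data known. Named members are the 4 highest of each complex, core subunits, paralogs, the 3 with the smallest p in each direction of each fit, the 3 with the largest and the 3 with the smallest SD, and single outlying values. COX8A, ATP5IF1 and NDUFA11 are named outside this rule, for their mean levels only. List genes are the 3 with the smallest p and CYCS, with SUCLA2 and COQ3 added after their values were seen.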

Additional observations from a re-analysis of the deposited data

Results flagged for a closer look

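In each group of 5 libraries the highest or lowest value of a gene was set against its nearest neighbour, and a gap above 0.71 of the whole range was marked. With the summed RPKM of the members and of the mitochondrial genes included, 104 such groups were looked at and 6 were marked. Chance marks about 1 in 20. Low replicate 5 had 13.9 RPKM of NDUFAF3 where the other 4 low libraries had 23.8 to 27.8, 13.1 RPKM of NDUFS6 where the others had 19.1 to 20.7, and 50.1 RPKM of UQCR11 where the others had 69.5 to 72.9. High replicate 5 had 36.3 RPKM of NDUFB7 where the other 4 high libraries had 29.7 to 31.3, and 40.9 RPKM of NDUFS4 where the others had 27.0 to 29.5. Low replicate 2 had 10.9 RPKM of NDUFAF6 where the other 4 low libraries had 1.97 to 4.23. High replicate 5 is 1 of the 2 libraries with nervous system transcripts. The part of that in these values was not tested.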

How the results depend on the processing

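In the comparison of high with low 0 members had an adjusted p under 0.05 in limma under any alternative run. With 1 library left out, 0 to 2 had an unadjusted p under 0.05, where 2.56% to 7.49% of all genes did, and the members' median difference ran from -0.04 to 0.05. Of the values recomputed for 41 named members, 845 kept their direction and 52 had the other sign. Without high replicates 1 and 5 these were ATP5MC3 at -0.015, NDUFA6 at 0.24, NDUFAF7 at -0.16, UQCR11 at 0.054 and UQCRC1 at -0.063. Quantile normalization gave ATP5PO 0.0029 and NDUFAF3 -0.0041. The same sum without the 13 mitochondrial genes gave NDUFAF3 -0.014, NDUFAF7 -0.011, NDUFS6 -0.0097 and UQCRQ -0.016. The mitochondrial level as a covariate gave NDUFAF3 -0.024, NDUFAF4 -0.096, NDUFAF7 -0.14, SDHC 0.0039, UQCRC1 -0.044 and UQCRQ -0.044. With 1 library left out the log2 difference spanned 0 in 16 members, from -0.015 to 0.16 for ATP5MC3, -0.083 to 0.0089 for ATP5PO, -0.74 to 0.091 for NDUFA6, -0.16 to 0.085 for NDUFAF3, -0.088 to 0.33 for NDUFAF4, -0.35 to 0.15 for NDUFAF6, -0.086 to 0.13 for NDUFAF7, -0.17 to 0.018 for NDUFB7, -0.12 to 0.067 for NDUFS4, -0.10 to 0.050 for NDUFS6, -0.016 to 0.16 for NDUFV1, -0.040 to 0.082 for SDHAF2, -0.14 to 0.025 for SDHC, -0.15 to 0.043 for UQCR11, -0.059 to 0.076 for UQCRC1 and -0.079 to 0.10 for UQCRQ.

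On the mitochondrial sum, 6 members were called at pseudocounts of 0.1 and 0.5 and with the other eBayes settings. The count, with the share of all genes called in brackets, was 3 without a filter (5.85%), 3 of 45 tested with a mean of at least 5 RPKM (18.9%), 7 with the same sum in each library (17.4%), 4 with the same sum without mitochondrial genes (12.1%), 2 with median-of-ratios scaling (6.47%), 8 with quantile normalization (24.9%), 3 with group as a covariate (9.85%), 2 without high replicates 1 and 5 (14.3%), and 0 without the 2 libraries farthest from the median (0.0183%), an alternative chosen after seeing the data. The cause was not tested, except that fewer genes or libraries enter by construction in some. With 1 library left out the count ran from 0 to 7, and the share of all genes from 0.943% to 20.9%. On the acute phase level 1 member was called at a pseudocount of 0.1 (2.74%), 1 at 0.5 (2.49%) and 2 with a mean of at least 5 RPKM (5.17%), and 0 to 1 with 1 library left out (0% to 4.23%). On the ribosomal protein level the count was 0 in each of these. No paired analysis was possible because the replicate numbers only name the libraries. With 5 libraries a group and unknown depth, small differences are beyond the precision of these data.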
